A study of Mus musculus with 577 samples.

Results

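The genes described here are 9 mouse genes for the storage, masking and decay of maternal mRNA, namely Zar1, Zar1l, Ybx2, Cpeb1, Dazl, Btg4, Patl2, Cnot7 and Cpsf4l. They were chosen by symbol, with earlier results of these data known. All 9 were found among the 22060 protein-coding genes of every gene count table of the series. The study cut single cells out of tissue sections by laser capture microdissection (LCM), lysed them with a detergent method named DRaqL, amplified their cDNA and sequenced the 3′ ends, giving 577 samples in all. The oocytes came from snap-frozen ovaries of 8-week-old female mice, cut at 15 μm and fixed and stained in alcohol. They were amplified by DRaqL-SC3-seq (14 oocytes of primary and 30 of secondary-to-antral follicles), by the SMART-Seq v4 kit (7 and 11) or by that kit with DRaqL (6 and 9). Of the 6 primary oocytes by the kit with DRaqL, 1 (replicate 6) carries protocol text that names formalin, and it was kept. A further group was fixed in formalin for 24 h and amplified by DRaqL-Protease-Smart-seq2 (5 and 7). In addition, 8 oocytes were cut into serial sections, of which 2 were sequenced for each. From a mouse in proestrus, 8 weeks old by the text of the study and of no age in the labels, 8 oocytes of secondary-to-antral follicles were laser-captured from sections of 1 ovary. From the other ovary 14 grown oocytes were freshly dissociated, in a cAMP analog that the study used against spontaneous activation. Granulosa cells neighboring or not neighboring an oocyte, pools of 10 such cells, and mouse embryonic stem cells (mESCs) cultured in 2i and LIF served as references. No genotype, strain or mouse was named for any group, so that cells of a group may share an animal, and each group of single cells counted as 1 sample without a test. The study states that its amplification methods were applied to sections of the same ovary, so the oocyte tables may share an animal too.

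A growing oocyte transcribes and stores mRNAs that are translated only later, during meiotic maturation and in the early embryo, when the genome is silent. Stored mRNAs carry short poly(A) tails and are held by RNA-binding proteins, and CPEB1 and DAZL, bound to elements in the 3′ untranslated region, direct which of them are masked and which are lengthened and translated. Removal of the stored mRNAs begins with shortening of the tail by the CCR4-NOT deadenylase, for which BTG4 is an adapter and CNOT7 a catalytic subunit.

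Levels are given as RPM, the reads of a gene scaled to the library's total over protein-coding genes, and differences as differences of mean log2 (RPM+1), so that 1 is a 2-fold difference and changes of low genes are understated. Reads were counted near 3′ ends, and levels are therefore compared within a gene and not between genes. Overlap of ranges is given for the members alone. The share of all genes without overlap was not computed, so a lack of overlap does not set members apart from other genes. Totals over protein-coding genes ranged from 133799 to 4127568 reads in the oocytes of the SMART-Seq v4 kit, with and without DRaqL, from 873206 to 2338750 in DRaqL-SC3-seq and from 188906 to 1997001 in formalin-fixed sections. Zp2, Zp3, Gdf9, Bmp15 and Oosp1, markers of oocytes, summed to 3212.53 to 20027.1 RPM in primary and 14109.2 to 26319.5 RPM in secondary-to-antral follicles by DRaqL-SC3-seq. In the oocytes of primary follicles by DRaqL-SMART-Seq v4, 3 of these 5 markers had a median above 0.

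The 3 members with the largest stage differences in DRaqL-SC3-seq, described next, are shown with the 250 bases before their RefSeq start sites (GRCm38.p6, printed 5′ to 3′ on the strand of the gene). Zar1l lies on the minus strand (chr5:150518160-150518409), Btg4 on the plus strand (chr9:51115751-51116000) and Patl2 on the minus strand (chr2:122186190-122186439). Capitals mark CANNTG, the E-box read by basic helix-loop-helix factors, and TAATTG, a core read by homeodomain factors, on either strand.
Zar1l: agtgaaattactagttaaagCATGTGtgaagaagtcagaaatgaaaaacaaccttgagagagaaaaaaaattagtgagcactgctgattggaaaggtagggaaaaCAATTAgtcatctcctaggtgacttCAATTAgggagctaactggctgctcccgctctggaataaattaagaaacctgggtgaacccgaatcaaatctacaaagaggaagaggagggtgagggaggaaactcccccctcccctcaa
Btg4: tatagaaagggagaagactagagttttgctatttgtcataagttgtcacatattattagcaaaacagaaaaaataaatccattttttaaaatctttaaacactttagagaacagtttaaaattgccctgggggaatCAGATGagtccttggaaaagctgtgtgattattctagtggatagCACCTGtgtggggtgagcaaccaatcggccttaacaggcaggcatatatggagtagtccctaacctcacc
Patl2: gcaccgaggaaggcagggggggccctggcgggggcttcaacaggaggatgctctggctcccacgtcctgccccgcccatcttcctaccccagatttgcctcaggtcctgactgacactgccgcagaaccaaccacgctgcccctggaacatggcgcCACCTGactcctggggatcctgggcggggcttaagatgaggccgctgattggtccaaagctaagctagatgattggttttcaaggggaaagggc
The window of Zar1l held TAATTG at 2 places, 145 and 120 bases before the start, and CANNTG at 1. The windows of Btg4 and Patl2 held CANNTG at 2 places and 1 place. Among 32851 promoter windows of 250 bases, 66.2% held CANNTG, 7.17% held TAATTG, and 0.511% held TAATTG at 2 or more places. GC content differed among the windows, at 42.8% for Zar1l, 38% for Btg4 and 62.4% for Patl2, against a median of 52.4%. Of the 9 members, 8 were matched in the RefSeq table, with 10 start sites, and Cnot7 was not. These matches describe the letters of the windows alone.

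First, the members were compared between follicle stages. In DRaqL-SC3-seq, oocytes of secondary-to-antral follicles had 6 of the 9 members more than 2-fold higher than oocytes of primary follicles (Zar1, Zar1l, Dazl, Btg4, Patl2 and Cpsf4l) and 0 members more than 2-fold lower. Among the 8350 genes with a mean of at least 4 in at least 1 stage, 35.2% were higher and 15.8% lower past the same 2-fold, and the median difference was 1.64 for the members and 0.43 for all genes. The balance of all genes depended on the scaling. With TMM scaling 28% were higher and 21.4% lower (median 0.12), and from summed counts 18.3% were higher and 29.7% lower (median −0.32), while 5 and 6 members were past 2-fold higher and 0 lower. The order of the differences ran from Zar1l through Patl2, Btg4, Zar1, Cpsf4l, Dazl, Cnot7 and Cpeb1 to Ybx2, which was the only member with a difference below 0.

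Of the members that bind and store mRNA, ZAR1 and its paralog ZAR1L bind 3′ untranslated regions of maternal mRNAs. Zar1 had a lowest, median and highest level of 202, 759 and 2524 RPM in 14 oocytes of primary follicles and of 2158, 3171 and 4847 RPM in 30 oocytes of secondary-to-antral follicles. Its means were 9.48 ± 1.07 and 11.64 ± 0.28 (SD over cells), a difference of 2.16, and the stages overlapped in range. Zar1l was near the detection limit in primary follicles, at 0.827, 2.85 and 7.93 RPM, and stood at 29.1, 239.7 and 492.9 RPM in secondary-to-antral follicles. The stages did not overlap, and the difference of 5.44 was the largest of the members, with a wide spread among secondary-to-antral oocytes (SD 1.27).

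YBX2, a Y-box protein of germ cells that coats stored mRNA, went with the stages the least. Ybx2 stood at 221, 436 and 605 RPM in primary and at 170.2, 289 and 416 RPM in secondary-to-antral follicles, a difference of −0.48 with overlapping ranges. Patl2, an oocyte-expressed paralog of the decapping cofactor Patl1, stood at 0.827, 11.2 and 44.3 RPM in primary and 46.4, 119.5 and 246 RPM in secondary-to-antral follicles. Its difference was 3.38, the stages did not overlap, and the highest primary oocyte lay just under the lowest secondary-to-antral one.

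Among the members that read or lengthen tails, CPEB1 and DAZL bind 3′ untranslated elements, and CPSF4L is a paralog of a zinc-finger subunit of the cleavage and polyadenylation complex. Cpeb1 stood at 123, 485 and 689 RPM in primary and 218, 608 and 883 RPM in secondary-to-antral follicles, a difference of 0.72 within overlapping ranges. Dazl stood at 51.9, 216 and 496 RPM and at 166, 452 and 689.6 RPM in the respective stages, a difference of 1.01 that lay on the 2-fold line, again with overlap. Cpsf4l stood at 233, 486 and 1022 RPM in primary and 1093, 1488 and 1878 RPM in secondary-to-antral follicles. Its means were 8.90 ± 0.60 and 10.54 ± 0.21, the difference was 1.64, and the stages did not overlap.

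Of the pair acting in deadenylation, Btg4 stood at 11.5, 103.2 and 484 RPM in primary and at 191, 1017 and 2288 RPM in secondary-to-antral follicles. The difference of 3.36 came with an overlap, since the highest primary oocytes lay above the lowest secondary-to-antral ones. Cnot7 stood at 10.8, 224 and 502 RPM and at 53.4, 314 and 1260 RPM in the respective stages, a difference of 0.91 with broad overlap (SD over cells 1.302 and 1.25). The paralog Cnot8, which encodes an alternative catalytic subunit, differed by 0.90.

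**Figure D1:**
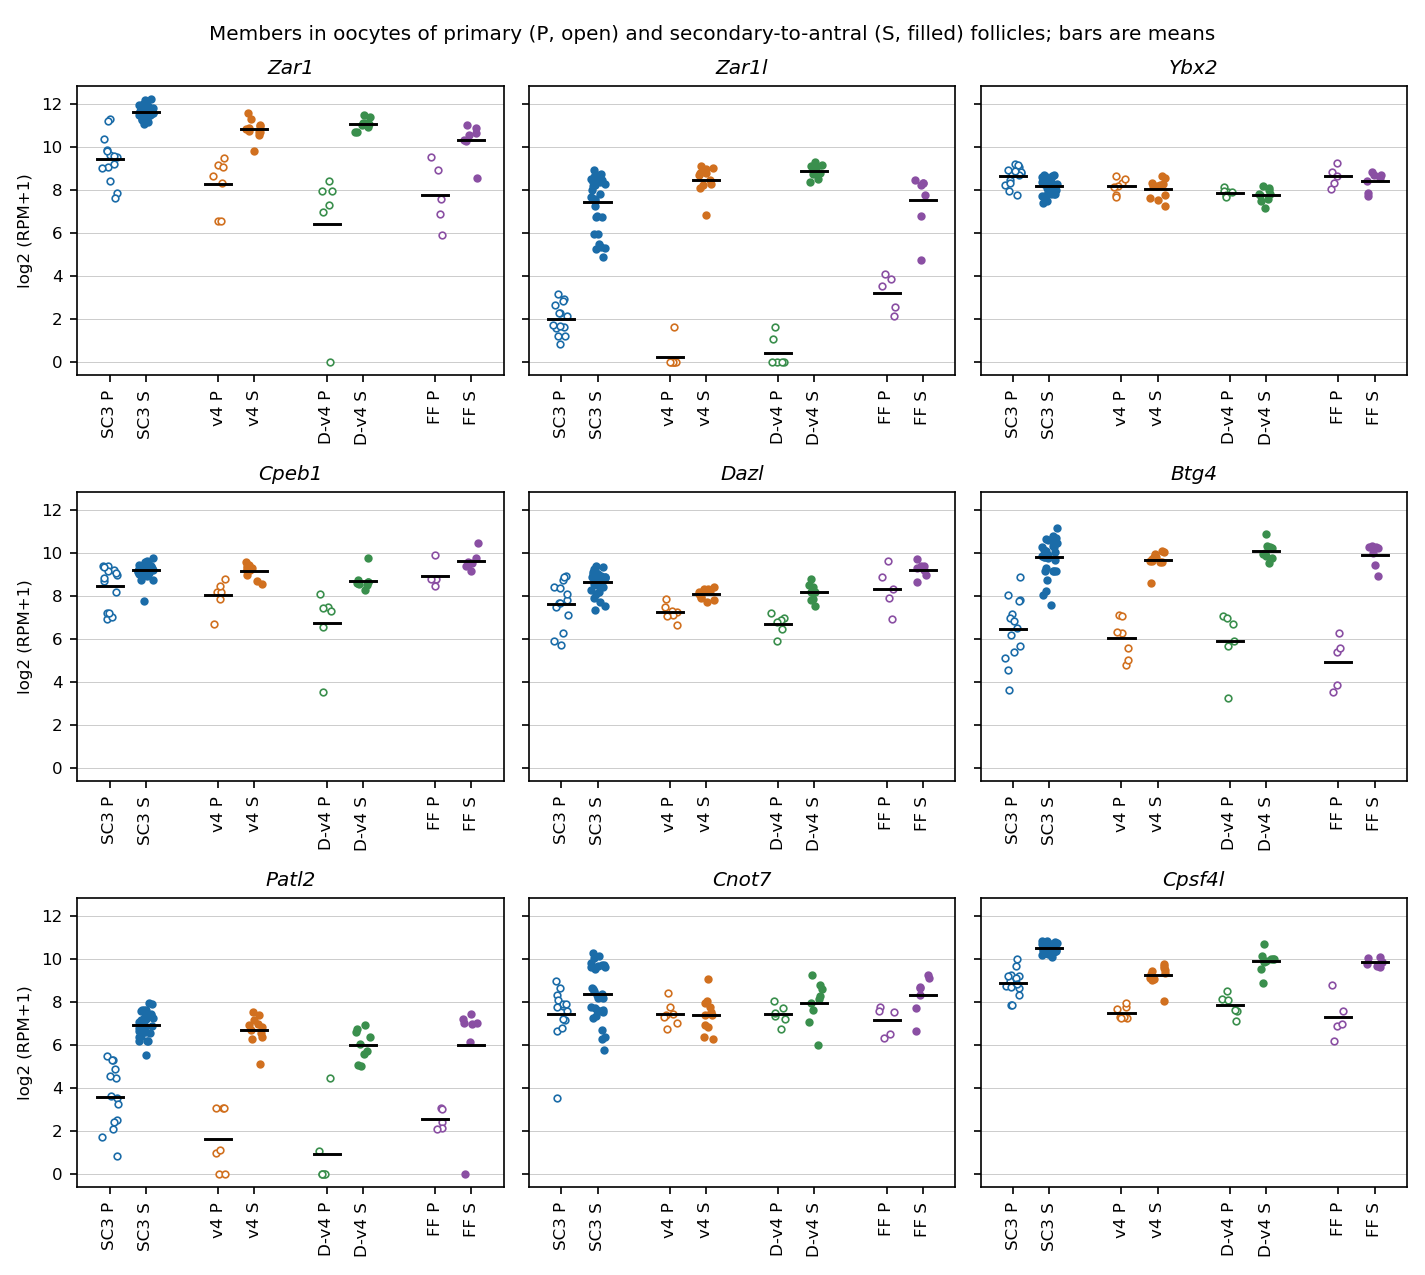
Each panel plots 1 member as log2 (RPM+1) on the vertical axis, with the 4 oocyte tables side by side on the horizontal axis, oocytes of primary follicles as open points (P), those of secondary-to-antral follicles as filled points (S) and means as bars. Zar1l and Cpsf4l show no overlap of the stages in any of the 4 tables, while Ybx2 overlaps in all 4. The share of all genes without overlap was not computed.

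The same comparison was made in the 3 other oocyte tables. The number of members past 2-fold higher was 6 in SMART-Seq v4, 7 in DRaqL-SMART-Seq v4 and 6 in formalin-fixed sections, with 0 lower in each. The respective shares of all genes higher were 32.7%, 37.8% and 28.1%, and 17.7%, 23.2% and 26.9% were lower. From summed counts 24.8%, 24.6% and 30.3% of all genes were higher and 22%, 30.3% and 32.3% lower, with 6, 6 and 7 members higher and 0 lower. Zar1, Zar1l, Btg4, Patl2 and Cpsf4l were past 2-fold in all 4 tables, as were 17% of the 6602 genes that could be compared in all 4 (4.98% were lower in all 4). The median difference of the members was 1.77, 2.04 and 2.54, against 0.28, 0.38 and −0.03 for all genes. Without the primary oocyte of DRaqL-SMART-Seq v4 whose protocol text names formalin, 7 members were still past 2-fold higher and 0 lower. Of all genes 39.9% were then higher and 23.1% lower. The tables differ in amplification, fixation and follicles at once, so differences between tables cannot be told apart from these.

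Zar1l was at or near 0 in most oocytes of primary follicles. In SMART-Seq v4 it had 0 reads in 6 of 7 oocytes of primary follicles and 2.16 RPM in the other, against 114.7 to 566 RPM in 11 oocytes of secondary-to-antral follicles. In DRaqL-SMART-Seq v4 the primary oocytes held 0, 2.14, 0, 0, 0 and 1.11 RPM, and the 9 secondary-to-antral oocytes held 334 to 646 RPM. Formalin-fixed oocytes were at 16.2, 3.51, 10.6, 4.87 and 13.5 RPM in primary and at 112.7, 219, 26.5, 299, 326, 355 and 322 RPM in secondary-to-antral follicles. The stages did not overlap in any of the tables, and the differences were 8.26, 8.47 and 4.30.

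Btg4 followed the same order of stages. Its levels were 77.6, 141, 47.5, 81.4, 134, 27.1 and 32.4 RPM in primary follicles by SMART-Seq v4, and 394 to 1105 RPM in secondary-to-antral follicles. By DRaqL-SMART-Seq v4 the primary oocytes were at 59.2, 8.56, 135, 51, 127 and 104.1 RPM and the secondary-to-antral ones at 743 to 1892 RPM. Formalin-fixed oocytes were at 10.8, 13.5, 77.5, 41.4 and 47.1 RPM and at 697, 1023, 492, 1305, 1271, 1229 and 1256 RPM. The stages were separate in these 3 tables, unlike in DRaqL-SC3-seq, and the differences were 3.64, 4.17 and 5.00.

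Zar1 showed single oocytes that stood apart. By DRaqL-SMART-Seq v4 the primary oocytes were at 347, 0, 247, 126, 249 and 156 RPM and the secondary-to-antral ones at 1692 to 2867 RPM, a difference of 4.64. The oocyte at 0 (replicate 2) held 2.88 protein-coding reads for each read of the added ERCC standard RNAs, the fewest of its table. In formalin-fixed sections Zar1 was at 60.5, 119, 190.1, 487 and 751 RPM in primary and at 1918, 2095, 376, 1317, 1631, 1249.9 and 1509 RPM in secondary-to-antral follicles, a difference of 2.56. The secondary-to-antral oocyte at 376 RPM (replicate 3) held 0.683 protein-coding reads for each ERCC read, and was also the lowest for Zar1l and Btg4 and the only one with 0 reads of Patl2. Without the oocytes under 3 protein-coding reads for each ERCC read, an alternative chosen after seeing the data, the difference of Zar1 was 3.35 by DRaqL-SMART-Seq v4 and 1.95 in formalin-fixed sections. The number of members past 2-fold was still 7 and 6.

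Patl2 was at or below 7.62 RPM in each of the 7 primary oocytes of SMART-Seq v4, against 34.4 to 186 RPM in secondary-to-antral follicles, a difference of 5.10. By DRaqL-SMART-Seq v4, 4 of the 6 primary oocytes had 0 reads of Patl2, and the highest, at 21.7 RPM, was under the lowest secondary-to-antral oocyte at 32.1 RPM. Formalin-fixed primary oocytes were at 3.37 to 7.51 RPM, and the secondary-to-antral ones at 174, 129.9, 0, 127, 132, 71.4 and 150.3 RPM. The stages overlapped there through the single oocyte at 0, and the difference was 3.42, or 4.54 without the oocytes of few reads for each ERCC read.

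Cpsf4l was at 152 to 247 RPM in primary and 264 to 895 RPM in secondary-to-antral follicles by SMART-Seq v4, and at 139.6 to 372 and 478 to 1678 RPM by DRaqL-SMART-Seq v4. In formalin-fixed sections it was at 72.4, 119.7, 127, 195 and 454 RPM and at 788 to 1104 RPM. The differences were 1.77, 2.04 and 2.54, and the stages were separate in each table.

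Ybx2, Cpeb1, Dazl and Cnot7 differed less between the stages or passed 2-fold in some tables alone. Ybx2 differed by −0.11, −0.12 and −0.23 in SMART-Seq v4, DRaqL-SMART-Seq v4 and formalin-fixed sections. Cpeb1 differed by 1.13, 1.98 and 0.69, and Dazl by 0.86, 1.45 and 0.90. By DRaqL-SMART-Seq v4 the stages did not overlap for Cpeb1, at 10.7 to 277 and 317 to 882 RPM, nor for Dazl, at 60.2 to 149.8 and 189.7 to 441 RPM. Cnot7 differed by −0.03, 0.53 and 1.20, and so passed 2-fold in formalin-fixed sections alone. These calls lay close to the 2-fold line. For Dazl in DRaqL-SC3-seq, the difference was 0.97 with a pseudocount of 10, 0.74 with TMM scaling and 0.78 from summed counts.

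**Figure D2:**
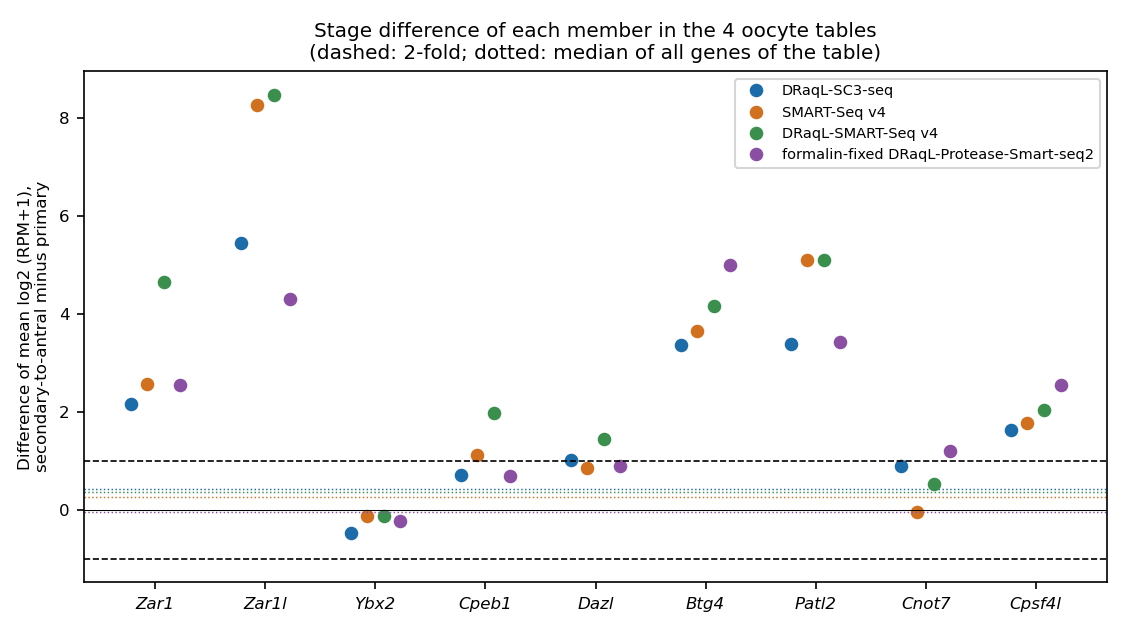
The vertical axis gives the difference of mean log2 (RPM+1), secondary-to-antral minus primary, for the 9 members on the horizontal axis, with 1 point for each of the 4 tables, dashed lines at 2-fold and dotted lines at the median of all genes of a table. Zar1, Zar1l, Btg4, Patl2 and Cpsf4l lie above the upper dashed line in all 4 tables, and Ybx2 lies between −0.48 and −0.11 in all 4.

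Library pools moved with the stages in parts of the data. By DRaqL-SMART-Seq v4 all 9 secondary-to-antral oocytes were in 1 library pool and all 6 primary oocytes in another, so that stage and pool cannot be told apart there. In SMART-Seq v4 the 7 primary oocytes shared a library pool with 1 secondary-to-antral oocyte. Within this pool 4 members were past 2-fold higher (41.2% of all genes were), at a difference of 1.56 for Zar1, 6.62 for Zar1l, 2.58 for Btg4 and 5.33 for Patl2, and the single oocyte was above all 7 primary ones for each of them. Cpsf4l differed by 0.54 and Cpeb1 by 0.67 in this pool. All 12 formalin-fixed oocytes were in 1 library pool, and the labels give no library pool for DRaqL-SC3-seq.

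RPM fixes the total of each oocyte, and the total itself differed between the stages. The median number of protein-coding reads for each ERCC read was 72.4 in secondary-to-antral and 18.7 in primary follicles by SMART-Seq v4, 134.9 and 12.3 by DRaqL-SMART-Seq v4, and 26.3 and 6.85 in formalin-fixed sections. Relative to the ERCC reads, a scaling added after seeing the data, all 9 members were past 2-fold higher in secondary-to-antral follicles in these 3 tables. Ybx2, which was lower in RPM, was higher by 1.51, 2.54 and 1.32 on this scale. Few genes reached a mean of 4 on this scale, 589 in SMART-Seq v4, 1386 in DRaqL-SMART-Seq v4 and still fewer in formalin-fixed sections, against 8456, 8266 and 8565 in RPM, and of the members 6, 8 and 3 reached it. Of these genes 73.9%, 98.2% and 94.3% were past 2-fold higher, so most genes compared went with the members. The labels name no oocyte size, and its part in the number of reads for each ERCC read was not tested.

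Other genes of mRNA storage, tail length and decay were then placed beside the members. Of a list of 78 genes, 77 were in the tables. In DRaqL-SC3-seq 70 of them reached a mean of 4 in at least 1 stage, of which 30 were past 2-fold higher and 7 lower in secondary-to-antral follicles (35.2% and 15.8% of all genes were). The respective counts were 24 and 9 of 68 in SMART-Seq v4 (32.7% and 17.7%), 32 and 7 of 63 in DRaqL-SMART-Seq v4 (37.8% and 23.2%), and 20 and 14 of 70 in formalin-fixed sections (28.1% and 26.9%). The median difference of the list was 0.75, 0.36, 1.00 and 0.04 in these tables. A total of 17 genes of the list were past 2-fold higher in each of the 4 tables and 0 were lower in each, beside 17% and 4.98% of the 6602 genes compared in all 4.

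The widest differences belonged to partners of cap and tail. Eif4e1b, an oocyte paralog of the cap-binding protein eIF4E, differed by 5.24 to 7.82 over the 4 tables, Pabpc1l, an embryonic poly(A)-binding protein, by 4.84 to 6.00 and its nuclear counterpart Pabpn1l by 4.53 to 5.92. Fam46b and Fam46c, noncanonical poly(A) polymerases, differed by 3.81 to 6.47 and by 3.44 to 5.20. Pabpc1, the somatic poly(A)-binding protein, differed by −1.39 in DRaqL-SC3-seq, −0.84 in SMART-Seq v4 and −1.54 in DRaqL-SMART-Seq v4, but by 0.04 in formalin-fixed sections. Cnot6l, a deadenylase subunit of the same complex as Cnot7, differed by 2.05 to 3.36, and the adapters Tob1 and Tob2, relatives of Btg4, by 1.72 to 2.27 and 1.66 to 4.29. In the DRaqL-SC3-seq oocytes the genes with the lowest differences were Dcp1b (−2.44) and Edc3 (−1.69), which act in decapping, Boll (−1.96), a relative of Dazl, Zcchc11 (−1.82), a uridylyltransferase, Cpsf1 (−1.48) and Pabpc1.

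Paralogs of the members went different ways. Beside Ybx2 (−0.48), Ybx1 differed by −0.40 and Ybx3 by 0.44 in DRaqL-SC3-seq, all within 2-fold. Beside Cpeb1 (0.72), Cpeb3 differed by −0.09 and Cpeb4 by 1.71, the latter from a mean of 2.40 to 4.10. Patl1 did not reach a mean of 4 in DRaqL-SC3-seq (2.81 in primary and 3.46 in secondary-to-antral follicles), and differed by −0.54 in SMART-Seq v4 and by −2.01 in formalin-fixed sections. Cpsf4 differed by 0.28 in DRaqL-SC3-seq, where its paralog Cpsf4l differed by 1.64, and by 2.36 in formalin-fixed sections, where Cpsf4l differed by 2.54. Of the partners of the storage proteins in DRaqL-SC3-seq, Eif4enif1 differed by 1.26, Lsm14b by 1.66 and the helicase Ddx6 by −0.69.

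Within the secondary-to-antral oocytes, members varied together to different degrees. Over the 30 DRaqL-SC3-seq oocytes, Zar1l and Btg4 had a Pearson's r of 0.91 (Spearman's rho 0.92), Btg4 and Cnot7 an r of 0.89 and Zar1l and Cnot7 an r of 0.86. Ybx2 and Cnot7 had an r of −0.55. For Zar1l and Btg4, r was 0.94 over 11 SMART-Seq v4, 0.78 over 9 DRaqL-SMART-Seq v4, 0.98 over 7 formalin-fixed, 0.90 over 8 same-mouse laser-captured and 0.42 over 14 freshly dissociated oocytes. The lowest oocyte for both genes was the same one in SMART-Seq v4 (replicate 9) and in formalin-fixed sections (replicate 3), and the respective rho was 0.78 and 0.68. For Btg4 and Cnot7, r was 0.19, 0.91, 0.19, 0.61 and −0.34 in the 5 groups other than DRaqL-SC3-seq. In the same order it was 0.28, 0.73, 0.04, 0.37 and −0.08 for Zar1l and Cnot7, and −0.35, 0.02, −0.47, 0.13 and 0.22 for Ybx2 and Cnot7. The values of these pairs in DRaqL-SC3-seq thus did not recur in all groups. These correlations describe cells that share a library preparation and possibly an animal, follicle stages from secondary to antral, and a common total, and carry no test.

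**Figure D3:**
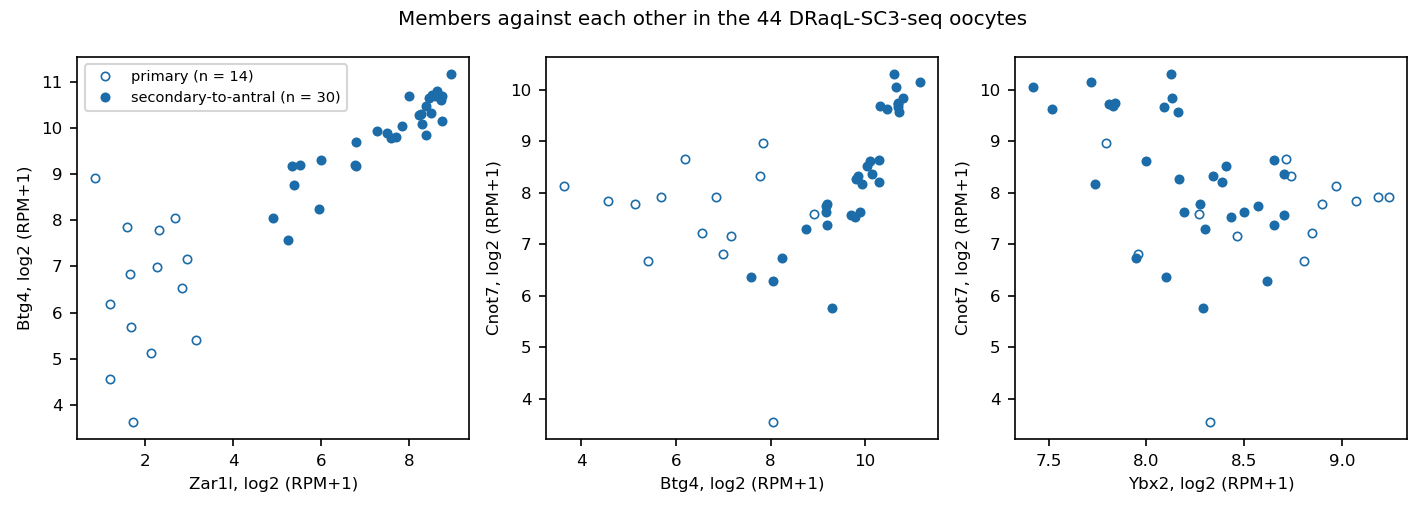
The panels plot log2 (RPM+1) of Zar1l against Btg4, of Btg4 against Cnot7 and of Ybx2 against Cnot7 for the 44 DRaqL-SC3-seq oocytes, with 14 oocytes of primary follicles as open and 30 of secondary-to-antral follicles as filled points. Among the filled points r was 0.91, 0.89 and −0.55 in the respective panels.

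The genes with the most similar pattern were sought over the 44 DRaqL-SC3-seq oocytes of both stages among 7220 genes with a mean of at least 4, and r of the same pair over the 15 DRaqL-SMART-Seq v4 oocytes stands beside it. Zar1l was closest to Fbxw16 (r 0.988 and 0.968), Oosp1 (0.985 and 0.984) and Gm13023 (0.976 and 0.994). Btg4 was closest to 4933427D06Rik (0.921 and 0.893), Fbxw19 (0.920 and 0.926) and Mest (0.919 and 0.912). Patl2 was closest to Zc3h6 (0.929 and 0.868), Hirip3 (0.921 and 0.778) and Trim60 (0.919 and 0.857). Zar1 and Cpsf4l had a pair of nearest genes in common, the growth factor Gdf9 and the F-box gene Fbxw24. For Zar1 the r was 0.943 and 0.973 with Gdf9 and 0.941 and 0.858 with Fbxw24, and for Cpsf4l it was 0.928 and 0.712 with Gdf9 and 0.929 and 0.824 with Fbxw24. The remaining nearest gene was Fbxw15 for Zar1 (0.938 and 0.654) and Zbed3 for Cpsf4l (0.922 and 0.843).

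The members with small stage differences had less similar neighbors. Both stages were pooled, so r depends for all members on the stage differences given above, and this contrast is not separate from them. The r of the members with small stage differences was lower in DRaqL-SMART-Seq v4, as it also was for Patl2 and Cpsf4l. Ybx2 was closest to P4hb (r 0.746 and 0.152), Agrp (0.735 and 0.341) and Ipo4 (0.673 and 0.170). Cnot7 was closest to Pole4 (0.785 and 0.368), Lrrc40 (0.783 and 0.332) and Fndc3a (0.780 and 0.311). For Cpeb1 the nearest were Timm9 (0.856 and 0.464), Uxt (0.838 and −0.202) and Tubb4b (0.837 and 0.726), and for Dazl they were Heatr5b (0.843 and 0.406), Nkd1 (0.835 and 0.735) and Cdyl (0.828 and 0.555).

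Serial sections showed how well a member's level was repeated within an oocyte. Between the 2 sections of each of 8 oocytes, the mean difference of a member ranged from −0.09 to 0.29 and its SD from 0.16 (Ybx2) to 0.47 (Cnot7). Of the 72 pairs of a member and an oocyte, 1 was past 2-fold, which is 1.39%, against 15.4% of 60448 pairs of any gene and oocyte. That pair was Patl2 in 1 oocyte, with a difference of 1.05. The genes compared had a mean of at least 4 and were not matched by level to the members, whose oocyte means ran from 6.37 to 12.76. The shares therefore do not set the members apart from genes of like level. The SD between the means of the 8 oocytes ran from 0.16 for Cpsf4l to 0.59 for Patl2, and for Cpeb1, Dazl and Cpsf4l it was smaller than the SD between sections (0.20, 0.21 and 0.16 against 0.29, 0.34 and 0.23). Among oocytes with 3′ counts, these sections were the most deeply sequenced, at 4232302 to 17506401 reads.

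**Figure D4:**
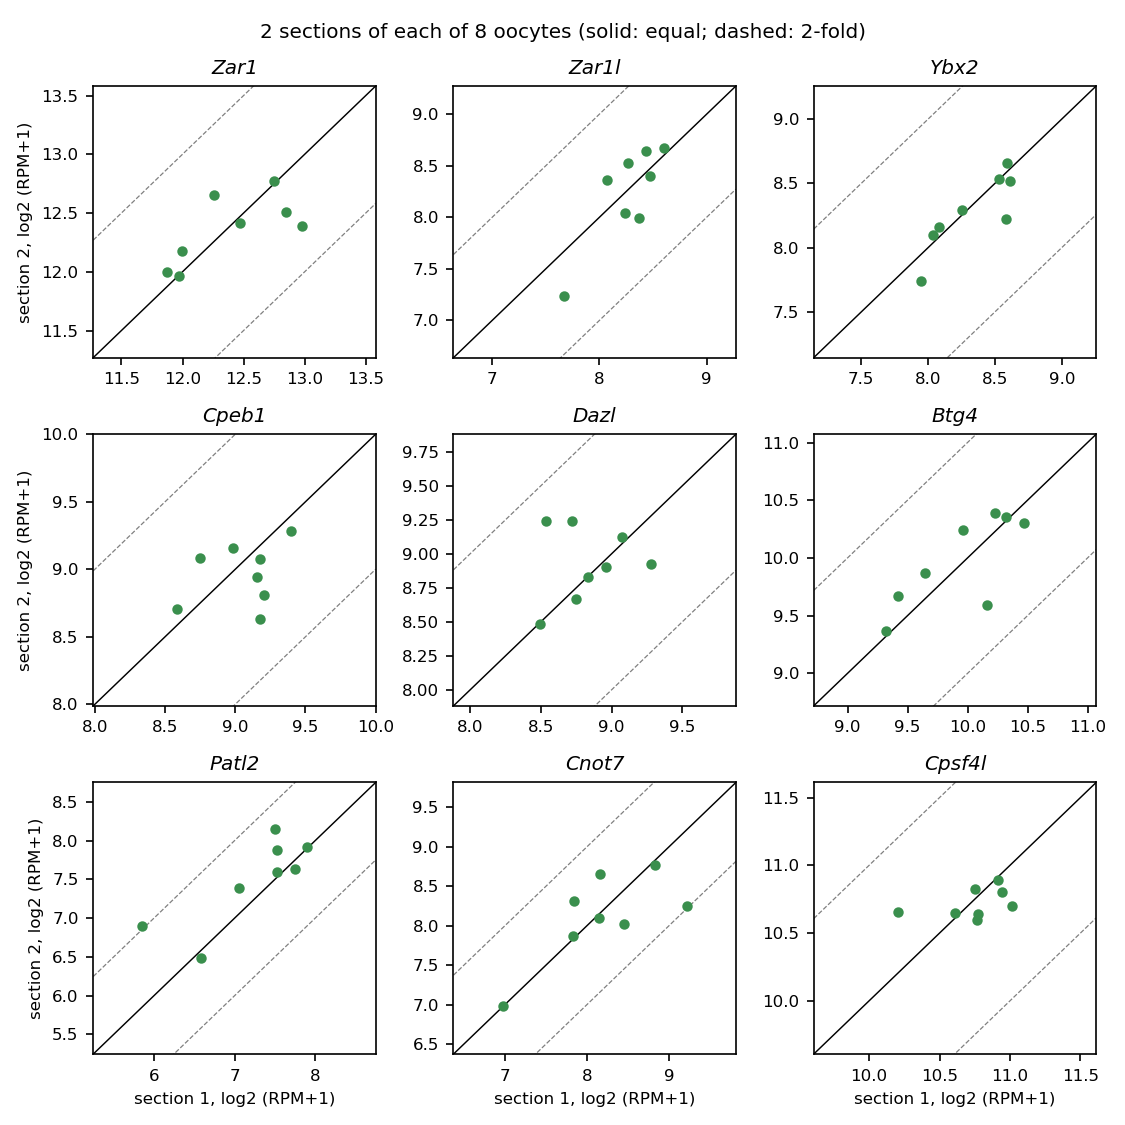
Each panel plots 1 member in section 2 against section 1 of the same oocyte, both as log2 (RPM+1), with 8 points for 8 oocytes, a solid line for equal values and dashed lines for 2-fold. All points but 1 of Patl2 lie between the dashed lines.

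Laser-captured and freshly dissociated oocytes were compared within the mouse whose ovaries were treated in both ways. Past 2-fold, 1 member was higher in the 8 laser-captured oocytes (20% of all genes were) and 2 were higher in the 14 freshly dissociated ones (20.2%). Ybx2 was at 86.8, 188 and 415 RPM (lowest, median and highest) in laser-captured and at 48.1, 83.01 and 208 RPM in freshly dissociated oocytes, a difference of 1.32 with overlap. Btg4 was at 431, 1164 and 2318 RPM against 2353.5, 3060.0 and 3869 RPM, a difference of −1.38 without overlap. Zar1l was at 80.2, 390.1 and 689 RPM against 509, 677 and 852 RPM, a difference of −1.02 with overlap. Cpeb1 differed by 0.52 without overlap, Cnot7 by −0.86, Dazl by −0.32, Zar1 by 0.18, Patl2 by 0.16 and Cpsf4l by −0.14. The groups differ in collection, in the cAMP analog, in the choice of follicles and in amplification at once, which cannot be told apart.

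Granulosa cells, the somatic cells around the oocyte, gave the reference within the ovary. All 9 members were past 2-fold higher in oocytes than in single granulosa cells in all 6 tables that hold both, although Patl2 in DRaqL-SMART-Seq v4 (means of 3.99 and 1.31) lay below the mean of 4 asked of the other genes. Of all genes, 80.8% were higher in oocytes in DRaqL-SC3-seq, 81.8% in SMART-Seq v4, 58.9% in DRaqL-SMART-Seq v4, 57.7% in formalin-fixed sections, 73.8% in the same-mouse laser-captured and 70.5% in the freshly dissociated cells, while 6.05%, 5.06%, 12.5%, 10.7%, 10.2% and 12.9% were higher in granulosa cells in the respective tables. The median difference of the members was 5.39 to 7.60, against 1.37 to 2.78 for all genes. Differences ranged over the tables from 5.39 to 8.27 for Zar1, 3.94 to 7.60 for Zar1l, 5.34 to 7.28 for Ybx2, 3.77 to 5.47 for Cpeb1, 6.29 to 8.17 for Dazl, 5.70 to 8.29 for Btg4 and 6.29 to 8.57 for Cpsf4l. Patl2 (2.43 to 5.65) and Cnot7 (1.29 to 3.64) were the nearest to granulosa cells. These shares rest on means of logarithms over cells in which many genes have 0 reads. From summed counts 26.5% to 31.8% of all genes were higher in oocytes and 22.8% to 38.9% higher in granulosa cells over the 6 tables, and the median of all genes was between −0.27 and 0.16. On that scale 3 of the 54 differences of the members were within 2-fold, namely Patl2 in DRaqL-SC3-seq (0.23) and Cnot7 in SMART-Seq v4 (0.32) and formalin-fixed sections (0.76).

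In mESCs, a pluripotent cell that is neither germ cell nor oocyte, several members were at or near 0. Btg4 was detected in 1 of 45 freshly dissociated mESCs and in 0 of 36 laser-captured ones. The latter allows a share of up to 8.33% of cells with detected reads, which sets no limit on cells that express the gene. Zar1 was detected in 10 of 45 and 9 of 36 cells and was never above 2.23 RPM. Cnot7 was at a mean log2 (RPM+1) of 6.05 and 6.01, Patl2 at 4.51 and 3.99, Cpsf4l at 4.49 and 3.19 and Cpeb1 at 4.07 and 3.38. Reads were found for Zar1l in 31 of 45 and 20 of 36 cells, for Ybx2 in 22 and 17 and for Dazl in 25 and 15. The highest Dazl level in mESCs was 250 RPM, within the range of oocytes of primary follicles by DRaqL-SC3-seq (51.9 to 496 RPM).

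In libraries with Y-shaped adapters reads can fall on any exon, with a bias toward 3′ ends that the study reports for mESCs. These libraries, from 5 oocytes of secondary-to-antral follicles and 10 of mESCs, showed which exons lay behind the 3′ counts. Overlapping exons were merged into blocks. Zar1 had 10252 to 14819 exon reads in the oocytes and at most 2 in the mESC libraries, Btg4 had 2057 to 5770 and at most 2, and Zar1l had 133 to 1299 and 0 in all 10. Cpeb1 had 1137 to 1678 exon reads in oocytes and 0 in all 10 mESC libraries, although 78 of 81 mESCs had 3′ reads of Cpeb1. The 3′ counts of Cpeb1 outside oocytes are therefore uncertain. So are those of Zar1l in mESCs, where 3′ reads were found but exon reads were not. Reads within 10 kb of a 3′ end were counted. Spg11 lies 1722 bases beyond the annotated 3′ end of Patl2 on the same strand, and Zdhhc2 overlaps Cnot7 on the opposite strand.

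Reads of the oocyte transcripts were concentrated at their last block in most members. The shares take no account of the 3′ bias of the method, nor of the length and number of blocks, of which Zar1 has 2. The last block held 94.8% to 99.2% of the exon reads of Cpeb1, 91.3% to 97.8% of Cnot7, 83.1% to 98.8% of Dazl and 75.6% to 84.9% of Zar1. Zar1l and Patl2 had the lowest shares in the last block, at 22.1% to 38.6% and 37.98% to 58.4%. A low share was not wide coverage, since all 5 oocytes had reads in 4 of 4 blocks of Zar1l but in 6 of 18 of Patl2. Exon junctions were read in all 5 oocytes for the members other than Cnot7, with a median of 2849 junction reads for Zar1, 1578 for Cpsf4l, 402 for Btg4, 215 for Zar1l, 212 for Ybx2, 172 for Patl2, 46 for Dazl and 10 for Cpeb1. In the mESC libraries 0 junctions were listed for Zar1, Zar1l, Cpeb1, Dazl and Btg4, while Patl2 had 5 to 548 junction reads and Cpsf4l 0 to 1072.

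Since CPEB1 reads the cytoplasmic polyadenylation element, the last 100 bases of the annotated transcripts were searched for TTTTAT and TTTTAAT on the strand of the gene. They were present in 16% of 28588 principal transcripts, and in those of Btg4, Ybx2 and Cnot7 among the members. Windows of 30 bases around these matches are shown, with capitals for the element and for the poly(A) signal AATAAA.
Btg4, transcript ending at chr9:51119583: aaaaTTTTATgaacactagtgaatataggt
Btg4, transcript ending at chr9:51119875: ccctTTTTATgtctttttaaaagtttgatt
Ybx2, transcript ending at chr11:69941605: gccaTTTTATgaactgtcatgtgccacctg
Cnot7, transcript ending at chr8:40493036: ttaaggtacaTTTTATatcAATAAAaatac
The element lay 96, 67, 62 and 20 bases from the respective ends (GRCm38), and in Cnot7 it was found in 1 of 3 transcripts. Which of the annotated ends the oocytes used was not tested, and the windows describe letters alone.

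Next, granulosa cells neighboring an oocyte were compared with those that did not. Among 7 neighboring and 7 non-neighboring pools of 10 cells, the groups with replicates, edgeR's quasi-likelihood test called 44 of 9704 genes higher in neighboring pools (0.453%) and 0 lower. At an unadjusted p under 0.05, 245 genes were higher and 157 lower, and DESeq2 called 301 higher and 110 lower. Of the 9 members, 7 passed the filter on low counts and 4 of them were higher, while Ybx2 and Dazl were removed by it. Separate animals are not named for the pools, so p-values measure the spread between pools. In a pool, more cells of a type and more RNA per cell cannot be told apart.

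Zar1 was at 127, 112.1, 147, 716, 882, 372.5 and 136 RPM in the 7 neighboring pools and at 4.32, 6.80, 0.655, 0.363, 30.4, 4.72 and 6.09 RPM in the non-neighboring ones. The groups did not overlap, and Zar1 was higher by a log2 fold of 5.54 (SE 0.90, edgeR adjusted p = 0.0103). Btg4 was at 46.1, 60.4, 5.91, 463, 554, 737 and 7.77 RPM in neighboring pools and at or below 3.41 RPM in the others, with 0 in 2 of them, and was higher by 7.57 (SE 1.38, edgeR adjusted p = 0.0205). Cpsf4l was at 90.1, 12.2, 160.3, 548.5, 259, 347 and 93.5 RPM and at or below 3.80 RPM, and was higher by 6.73 (SE 0.94, edgeR adjusted p = 0.00337). Zar1l, at 56.1, 2.03, 71.6, 106.2, 130.3, 38.4 and 2.64 RPM against at most 1.05 RPM, was higher by 6.95 (SE 1.31, edgeR adjusted p = 0.0217). Pools 2 and 7 were the lowest for Zar1l, pools 3 and 7 for Btg4 and pool 2 for Cpsf4l, so the order of the neighboring pools differed between members. With the pool number as a block, 0 members were called. The edgeR adjusted p was then 0.0503 for Zar1, 0.0547 for Cpsf4l, 0.0610 for Btg4 and 0.363 for Zar1l. Without a block, Zar1 and Cpsf4l were called whichever pool number was left out. The call of Zar1l was lost without pool number 1, 3, 4, 5 or 6 (edgeR adjusted p = 0.0566, 0.0566, 0.113, 0.174 and 0.0628), and that of Btg4 without pool number 4, 5 or 6 (edgeR adjusted p = 0.0949, 0.137 and 0.0768).

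The other members did not pass edgeR's test. Cpeb1 was at 65.8 to 312 RPM in neighboring and 13.9 to 164 RPM in non-neighboring pools, a log2 fold of 0.32 (edgeR adjusted p = 0.998), and Patl2 and Cnot7 had folds of 0.66 and 0.18 (edgeR adjusted p = 0.998 for both). Ybx2, at 15.5, 8.34, 2.61, 108.5, 192.5, 14.2 and 0.661 RPM in neighboring pools, stood at 1.20 RPM or less in the others, and its fold without the filter was 6.87 (edgeR adjusted p = 0.0960). Dazl was at 34.6 RPM or less in neighboring pools, 0 in 2 of them, and at 0.80 RPM or less in the others. Its fold without the filter was 5.37 (edgeR adjusted p = 0.210). DESeq2 called 5 members higher (2.13% of all genes), Ybx2 among them (log2 fold 6.94, DESeq2 adjusted p = 2.93e-05). It did not call Dazl (log2 fold 5.56, DESeq2 adjusted p = 0.0564).

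Markers of oocytes moved with these members. Zp3, Gdf9 and Oosp1 were higher in neighboring pools by a log2 fold of 6.23, 6.28 and 6.47 (edgeR adjusted p = 0.0217, 0.0197 and 0.0217), and Zp2 and Bmp15 had folds of 6.20 and 3.24 (edgeR adjusted p = 0.0946 and 0.998). The 5 markers summed to 172 to 2971 RPM in neighboring and to 0.312 to 58.8 RPM in non-neighboring pools. As a percentage of the mean of the oocyte sections, the neighboring pools held 6.51% of Zar1, 18.6% of Zar1l, 15.3% of Ybx2, 26.03% of Btg4, 12.6% of Cpsf4l and 1.48% of Dazl. For the markers these percentages were 1.57% of Zp2, 2.22% of Zp3, 6.36% of Gdf9, 3.32% of Bmp15 and 11.1% of Oosp1. The part of oocyte RNA in the difference between pools was not tested. Of the other genes of mRNA storage and decay, 64 were tested and 0 were called by edgeR. Of all genes tested 0.453% were called higher and 0 lower, so this count does not set the list apart from all genes.

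**Figure D5:**
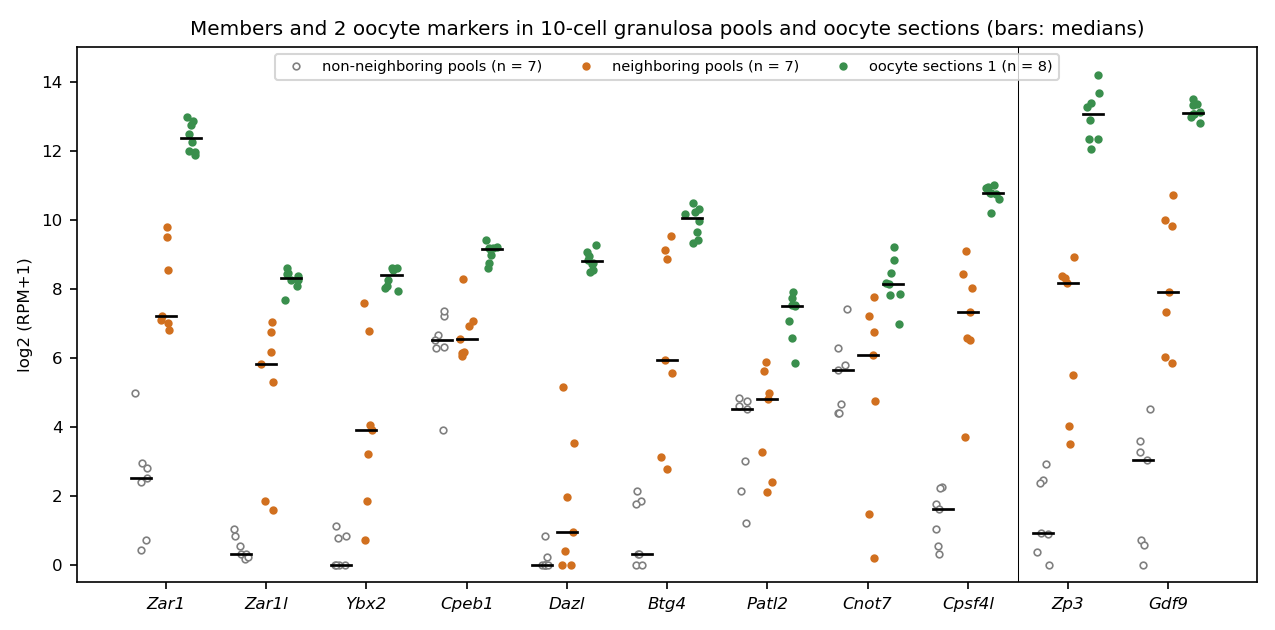
The vertical axis gives log2 (RPM+1) of the 9 members and of 2 oocyte markers in 7 neighboring pools, 7 non-neighboring pools and the oocyte sections, with medians as bars. For Zar1, Zar1l, Btg4 and Cpsf4l the median of the neighboring pools lies between those of the non-neighboring pools and the oocyte sections, and the mean of the neighboring pools was 6.51% to 26.03% of that of the sections.

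Single granulosa cells gave the same comparison in 8 tables, without a test. Most members were low in these cells, and 1 to 5 of the 9 reached a mean of 4 in at least 1 of the groups of a table. Among those, the members past 2-fold higher in neighboring cells numbered 3 of 4 in DRaqL-SC3-seq (6.46% of all genes that reached 4 were), 0 of 1 in SMART-Seq v4 (15.5%), 0 of 2 in DRaqL-SMART-Seq v4 (13%), 2 of 4 in formalin-fixed sections (25.8%), 4 of 5 in LCM-seq (21.9%), 2 of 3 in DRaqL-Smart-seq2 (15.9%), 1 of 2 in same-mouse laser-captured cells (11.8%) and 0 of 2 in freshly dissociated cells (2.78%). With the members of lower levels, for which these shares give no measure, the counts were 6, 3, 6, 6, 7, 6, 5 and 2 in the same order. The 1 difference past 2-fold in the other direction was Cnot7 in freshly dissociated cells (−1.81), where 62.1% of all genes were lower in neighboring cells. In the other tables, in the order given, 21.7%, 26.7%, 18.6%, 13.2%, 8.23%, 6.28% and 15% of all genes were lower. Zar1 was past 2-fold higher with a mean of at least 4 in 4 tables (DRaqL-SC3-seq, formalin-fixed sections, LCM-seq and DRaqL-Smart-seq2) and Cpeb1 in 3, whereas Btg4 was so in LCM-seq alone, Cpsf4l in formalin-fixed sections alone, and Ybx2 and Dazl in 0. In DRaqL-SC3-seq the means of Zar1 were 4.43 ± 3.63 in 31 neighboring and 2.73 ± 2.92 in 26 non-neighboring cells, a difference well within the spread over cells.

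The median of the oocyte markers was higher in neighboring cells in the sections, and lower in freshly dissociated cells. The highest freshly dissociated cell was at 9021 RPM among neighboring and at 1199 RPM among non-neighboring cells. The study reports profiles mixed with those of oocytes more often in attached than in other freshly dissociated granulosa cells, and these cells were kept here. Their summed median was 385 RPM in neighboring and 10.9 RPM in non-neighboring cells of DRaqL-SC3-seq, 352 and 9.92 RPM in SMART-Seq v4, 689 and 1.70 RPM in LCM-seq, and 52.4 and 98.3 RPM in freshly dissociated cells. Without cells that reached 10% of the median oocyte in these markers, an alternative chosen after seeing the data, the members past 2-fold higher at any level numbered 3 in DRaqL-SC3-seq, 0 in SMART-Seq v4, 5 in DRaqL-SMART-Seq v4, 5 in formalin-fixed sections, 5 in same-mouse laser-captured cells and 0 in freshly dissociated cells. Of these, 1, 0, 0, 1, 1 and 0 reached a mean of 4, beside 7.42%, 14.3%, 12.5%, 26.7%, 12.4% and 3.77% of all genes that did.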

How the data were processed

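RNA was measured in 577 samples, of which the oocytes, granulosa cells, pools, bulk granulosa cells and mESCs described here were taken by their labels. The authors trimmed the reads with fastp 0.20.0 and cutadapt 1.16, aligned them to GRCm38 using HISAT2 2.1.0 and counted them per gene using HTSeq 0.10.0, including those up to 10 kb from an annotated 3′ end, and deposited these counts without normalization. Whether that counting used the strand is not given in the sources used here. For libraries with Y-shaped adapters the authors counted reads per exon and per junction with featureCounts 2.0.1. The reads carry no molecular identifiers, so that limits on shares cover counting error only (a count of 0 allows up to 3 counts).

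Counts were divided by the library's total over protein-coding genes (RPM) and transformed as log2 (RPM+1). Genes with a mean of at least 4 in at least 1 group were compared, and past 2-fold means a difference above 1. Members were followed at any level, and where some lie below that mean their counts are given with and without it. Single cells of a group counted as 1 sample and were not tested, and 3 granulosa libraries labelled as mixed were left out. The 14 pools of 10 cells were tested with edgeR 4.0.16 (TMM, filterByExpr, quasi-likelihood F-test, Benjamini-Hochberg adjustment over all genes tested, threshold 0.05) in R 4.3.3. The pool test was tested on simulated data with changed genes among 9776, and 24 of 100 genes at 8-fold and 58 of 100 at 64-fold were recovered, with 3 false calls. Other steps used Python 3.11.15 with pandas 2.3.3, NumPy 2.4.6, SciPy 1.17.1 and matplotlib 3.10.9. Promoter windows are from RefSeq (GRCm38.p6) and transcript ends from the GRCm38 annotation.

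The members and lists were chosen with earlier results of these data known. Named genes are the 9 members, the 6 genes of the list of mRNA storage and decay with the largest stage difference in each direction in DRaqL-SC3-seq, paralogs and partners of members, the 3 genes most like each member and markers of cell types. Genes past 2-fold in all 4 oocyte tables (Tob1 and Tob2 among them) were named after their values were seen. Alternatives were pseudocounts of 0.1 and 10, TMM scaling, thinning to 1 depth, summed counts, totals over all genes, 1 library pool and a minimum of 5 reads. Each formalin-fixed oocyte of primary follicles was left out in turn, and no other oocyte was left out in turn. For the pools they were leaving out each pool number, DESeq2 1.42.0, no filter and the pool number as a block.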

Additional observations from a re-analysis of the deposited data

Results flagged for a closer look

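Single samples stood apart from their group in 13 of 90 sets of a group and a member, over 7 groups, by the gap to the nearest value in the range of the group. The nominal rate of this rule is about 1 in 20. It was not checked on these data, and sets that share an oocyte are not independent. Values are log2 (RPM+1). By DRaqL-SMART-Seq v4 the oocyte of a primary follicle of replicate 2 was low for Zar1 (0, others 6.98 to 8.44), Cpeb1 (3.55, others 6.58 to 8.12) and Btg4 (3.26, others 5.70 to 7.09). The primary oocyte of replicate 1 was high for Patl2 (4.50, others 0 to 1.08), and the secondary-to-antral oocyte of replicate 1 was high for Cpeb1 (9.79, others 8.32 to 8.76).

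Among formalin-fixed oocytes, the secondary-to-antral one of replicate 3 was low for Zar1 (8.56, others 10.29 to 11.03) and Patl2 (0, others 6.18 to 7.45), and the primary one of replicate 3 was high for Cpeb1 (9.92, others 8.46 to 8.83). In the same-mouse laser-captured oocytes, replicate 8 was low for Zar1 (9.75, others 10.65 to 11.43) and replicate 7 for Patl2 (4.62, others 6.00 to 7.09). By SMART-Seq v4 the primary oocyte of replicate 3 was the only one with reads of Zar1l (1.66). Of the non-neighboring pools, number 1 was low for Cpeb1 (3.90, others 6.30 to 7.36) and number 2 was high for Dazl (0.85, others 0 to 0.23).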

How the results depend on the processing

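Between follicle stages, 250 of 261 recomputed member differences under the alternatives planned kept their side of the 2-fold line and 11 crossed it, and Ybx2 stayed within 2-fold under all of them. Between laser-captured and freshly dissociated oocytes, the members lower in laser-captured ones numbered 1 with a pseudocount of 10, with TMM scaling and with summed counts, since Zar1l was then at −0.99, −0.98 and −0.93. Without granulosa cells of high oocyte markers, chosen after seeing the data, the members higher in neighboring cells numbered 3 in DRaqL-SC3-seq, and 0 in SMART-Seq v4 and in freshly dissociated cells, with 2 lower in each of these last tables. Of all genes with a mean of at least 4, 7.42%, 14.3% and 3.77% were then higher and 22.7%, 32.3% and 57.7% lower. Btg4 was then at −0.054 in SMART-Seq v4 and Zar1 at −0.38 in freshly dissociated cells.

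In the pools, the correlation of the deviations of same-numbered pools was −0.00051 to 0.179. Differently numbered pools were not correlated, so whether the numbers in the labels pair the samples was not tested. With the pool number as a replicate block, edgeR called 3 genes and 0 members higher in neighboring pools. The adjusted p of Zar1 was then 0.0503, of Cpsf4l 0.0547, of Btg4 0.0610 and of Zar1l 0.363, and the log2 fold of Cnot7 was −0.66. Leaving out each pool number in turn gave 5 to 34 genes higher, 0 to 1 lower and 2 to 4 members higher, and the log2 fold of Cpeb1 ranged from −0.18 without pool number 4 to 0.62 without pool number 6. Without the filter 1 gene was lower and 55 were higher, and DESeq2 called 301 higher and 110 lower. The cause of these changes was not tested.

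Depth limits the low members most. At a minimum of 5 reads, Zar1 was detected in 0 of 45 freshly dissociated mESCs. Library totals of single granulosa cells, down to 12748 reads in freshly dissociated neighboring cells, give little precision for Zar1l and Patl2. The oocytes under 3 protein-coding reads for each ERCC read held 188906 to 1997001 protein-coding reads. Few reads for each ERCC read thus did not mean a low library total.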
